A study of Mus musculus with 9 samples.

Results

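The genes described here are 10 genes of mitochondrial fatty acid oxidation and its transcriptional control in mouse macrophages: the enzyme genes Cpt1a, Cpt2, Acadvl, Acadl, Acadm, Hadha, Hadhb and Acaa2, the nuclear receptor gene Pparg and the coactivator gene Ppargc1b. They were chosen by name, as the annotated symbols of the array's probe sets. Each of the 10 had 1 probe set, and all 10 were among the 10042 of 19505 named genes whose mean level reached 5.66 on the log2 scale, the median of all probe sets, which was the limit set for testing. Bone marrow of wildtype C57BL/6 animals had been differentiated into macrophages over 7 days in 10% serum and macrophage colony-stimulating factor, given as 10 ng/ml in the growth protocol and as 20 ng/ml in the design text. Every culture then received 20 ng/ml of the cytokine IL-4 and was harvested 24 h later. The treatment was lipocalin 2 (LCN2), a secreted siderophore-binding protein. The 3 groups received vehicle, LCN2 on day 7 of the culture at a dose not given in the labels, or recombinant mouse LCN2 throughout the culture, from day 0, at 150 ng/ml. All cells carried the same genotype and all received IL-4, so no group without IL-4 was compared. Each group was measured on 3 arrays, numbered 1 to 3 in the titles. The labels do not say whether these came from separate mice or cultures, so the p-values measure only the spread between arrays, which may be technical.

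Long-chain fatty acids enter mitochondria as carnitine esters, which the carnitine palmitoyltransferases form and release, and are then shortened in repeated rounds of dehydrogenation, hydration, a further dehydrogenation and thiolytic cleavage. The peroxisome proliferator-activated receptors (PPARs) are lipid-sensing nuclear receptors that bind DNA together with retinoid X receptors, and PPARγ and the coactivator encoded by Ppargc1b are known for their part in the IL-4 response of mouse macrophages. That macrophages activated by IL-4 rely on fatty acid oxidation is a textbook description of this state.

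Array medians lay between 5.60 and 5.69 on the log2 scale, and the rest of the distributions was not compared. Macrophage markers had mean list levels between 10.5 and 10.7 on all arrays and IL-4 response genes between 9.86 and 10.2, although single genes of both lists differed by title number, as given further on. None of the 5 adipocyte markers with a probe set reached the limit for testing, with gene means of 3.95 to 4.34. The arrays numbered 1 stood apart from those numbered 2 and 3 in each group: limma called 3333 of 10042 genes (33.2%), with 2224 lower and 1109 higher on array 1, a split that became 1481 higher and 1731 lower when the arrays were quantile normalized once more. Every group holds 1 array of each number. Results are therefore given by treatment and by title number, with differences as log2 values (first minus second), from limma fits over all 10042 genes with Benjamini-Hochberg adjustment.

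No difference between treatment groups was detected for these 10 genes. Limma called 0 of the 10 in each of the 3 comparisons between groups, where 0% of all 10042 genes were called as well, and 0 of the 10 at an unadjusted p under 0.05, where 0.697% (day 7 against vehicle), 1.41% (day 0 against vehicle) and 1.76% (day 0 against day 7) of all genes lay under it. With the title number as a block the count at an adjusted p under 0.05 was again 0 of 10 and 0% of all genes, where 2.58%, 4.95% and 5.37% of all genes had an unadjusted p under 0.05. In no comparison did 2 groups lie fully apart for any of the 10, against 3.17%, 5.49% and 5% of all genes in the same order. The median difference of the 10 genes was 0.01 for LCN2 on day 7 against vehicle (all genes 0.00) and -0.05 for LCN2 from day 0 against vehicle (all genes -0.01). The difference had the same sign in all 3 title numbers for 2 of the 10 genes (day 7 against vehicle, 21.7% of all genes), 4 of 10 (day 0 against vehicle, 27.3%) and 2 of 10 (day 0 against day 7, 20.9%). The widest difference was that of Cpt2 between the LCN2 groups, at -0.25.

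**Figure D1:**
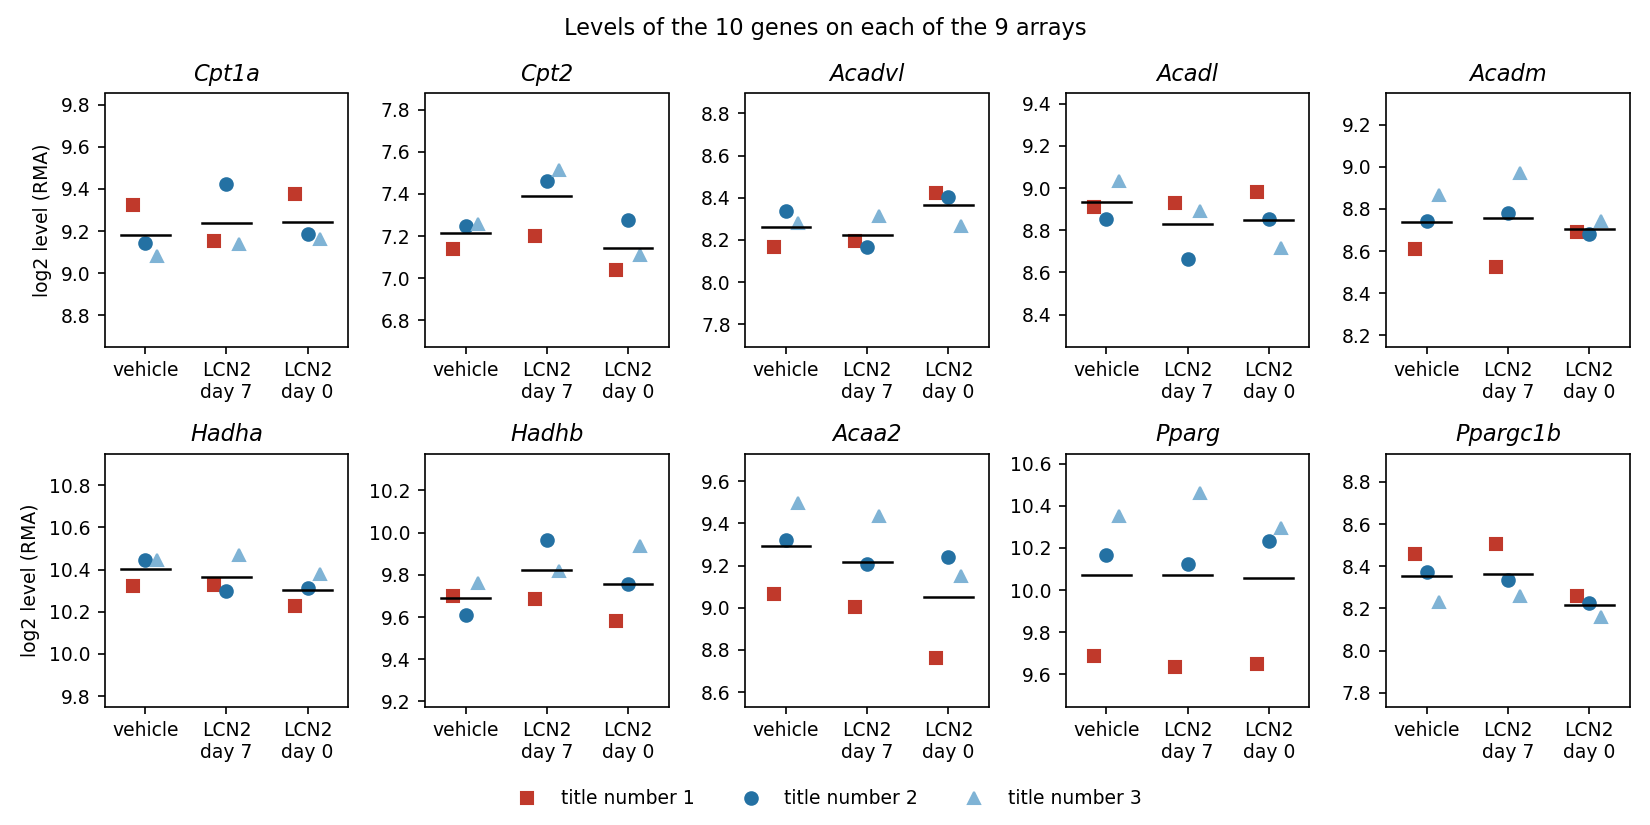
Log2 level (RMA, vertical axis, each panel spanning the same range) of the 10 genes on the 9 arrays by treatment group, with squares, circles and triangles for title numbers 1, 2 and 3 and a bar for each group mean. The groups overlap for every gene, and the squares lie lowest in each group for Pparg, Acaa2 and Cpt2.

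Neither carnitine shuttle gene passed in a comparison between groups. Cpt1a encodes the outer-membrane carnitine palmitoyltransferase, the regulated entry step of the pathway. Its log2 level was 9.32, 9.15 and 9.08 on vehicle arrays 1, 2 and 3, 9.16, 9.42 and 9.14 with LCN2 on day 7, and 9.38, 9.19 and 9.16 with LCN2 from day 0. The highest value was LCN2 day 7 array 2 and the lowest vehicle array 3, and all groups overlapped. Cpt1a differed from vehicle by 0.06 ± 0.13 (SE, n = 3 per group) after LCN2 on day 7 and by 0.06 ± 0.13 after LCN2 from day 0, with 95% intervals of -0.23 to 0.34 and -0.23 to 0.34. Its promoter, in the RefSeq window of GRCm38.p6 that runs from 250 bases before to 50 bases after the transcript start, holds the letters AGGTCA once, on the opposite strand, with 88 bases between the motif and the start. This sequence is the core to which nuclear receptors such as the PPARs bind, usually as 2 copies, and it is shown further on beside that of the other genes that hold it.

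Cpt2 encodes the inner-membrane carnitine palmitoyltransferase, which frees the acyl group for oxidation. Its log2 level was 7.14, 7.25 and 7.26 with vehicle, 7.20, 7.46 and 7.51 with LCN2 on day 7, and 7.04, 7.28 and 7.11 with LCN2 from day 0. The arrays numbered 2 and 3 of the day 7 group were the highest of all 9, and array 1 of that group lay within the range of the others. LCN2 on day 7 minus vehicle was 0.18 ± 0.12 (SE, n = 3 per group), with an interval of -0.10 to 0.45. Between the LCN2 groups, day 0 minus day 7, Cpt2 differed by -0.25 ± 0.12 (limma, unadjusted p = 0.0716, adjusted p = 0.9999), and by -0.16, -0.18 and -0.40 within numbers 1, 2 and 3. With the title number as a block the unadjusted p was 0.0276 and the adjusted p 0.898.

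The 3 acyl-CoA dehydrogenases carry out the first oxidation of each round and differ in the chain length they prefer. Acadvl, for very long chains, was measured at 8.17, 8.34 and 8.28 with vehicle, 8.20, 8.17 and 8.32 with LCN2 on day 7, and 8.42, 8.40 and 8.26 with LCN2 from day 0. The highest values were arrays 1 and 2 of the day 0 group, while its array 3 lay inside the vehicle range. Its differences from vehicle were -0.04 ± 0.11 for day 7 and 0.10 ± 0.11 for day 0 (SE, n = 3 per group).

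Acadl, for long chains, had levels of 8.91, 8.85 and 9.03 with vehicle, 8.93, 8.66 and 8.89 with LCN2 on day 7, and 8.98, 8.85 and 8.72 with LCN2 from day 0. The lowest arrays were day 7 array 2 and day 0 array 3, vehicle array 3 was the highest, and the groups overlapped. Its differences from vehicle were -0.11 ± 0.12 and -0.08 ± 0.12 in the same order. Acadm, for medium chains, was at 8.61, 8.74 and 8.87 with vehicle, 8.52, 8.78 and 8.97 with LCN2 on day 7, and 8.69, 8.68 and 8.74 with LCN2 from day 0. The day 0 arrays lay close together (SD 0.03) between the extremes of the other groups (SD 0.13 with vehicle and 0.23 with day 7). Its differences from vehicle were 0.02 ± 0.13 and -0.03 ± 0.13.

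Hadha and Hadhb encode the alpha and beta subunits of the mitochondrial trifunctional protein, which performs the remaining steps on long chains. The 2 genes lie head to head: in RefSeq's GRCm38.p6 table the start of Hadha, on the minus strand of chromosome 5 at position 30154980, and that of Hadhb, on the plus strand at 30155253, have 272 bases between them. Their promoter windows share 228 bases. The 250 bases before the Hadhb start, chr5:30155003-30155252, all lie between the starts of the pair, so the same stretch is upstream sequence of both genes. They are shown for that reason on the plus strand, with the GC box GGGCGG in capitals, which occurs 2 times.
Hadha-Hadhb intergenic stretch: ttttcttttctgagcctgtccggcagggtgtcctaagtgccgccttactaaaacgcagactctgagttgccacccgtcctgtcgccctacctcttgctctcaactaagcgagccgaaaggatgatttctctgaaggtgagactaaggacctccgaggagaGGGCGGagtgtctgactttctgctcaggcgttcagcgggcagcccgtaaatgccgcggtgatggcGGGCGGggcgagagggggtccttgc

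The log2 level of Hadha was 10.32, 10.44 and 10.45 with vehicle, 10.33, 10.30 and 10.47 with LCN2 on day 7, and 10.23, 10.31 and 10.38 with LCN2 from day 0. Hadha had the smallest spread of the 10 genes, an SD of 0.08 over the 9 arrays, and differed from vehicle by -0.04 ± 0.10 and -0.10 ± 0.10 (SE, n = 3 per group). Within numbers 1, 2 and 3 the difference of day 0 from vehicle was -0.10, -0.13 and -0.07. Hadhb was at 9.70, 9.61 and 9.76 with vehicle, 9.69, 9.97 and 9.82 with LCN2 on day 7, and 9.58, 9.76 and 9.94 with LCN2 from day 0. Its highest values were day 7 array 2 and day 0 array 3 and its lowest day 0 array 1, and its differences from vehicle were 0.13 ± 0.13 and 0.07 ± 0.13. The 2 subunit genes did not follow each other from array to array. After subtraction of the mean of each title number, their levels correlated at r = -0.53 over the 9 arrays, which is given as a description of small deviations.

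Acaa2 encodes the mitochondrial 3-ketoacyl-CoA thiolase, which cleaves acetyl-CoA from the chain. Its log2 level was 9.07, 9.32 and 9.50 with vehicle, 9.01, 9.21 and 9.44 with LCN2 on day 7, and 8.76, 9.24 and 9.15 with LCN2 from day 0. In each group array 1 was the lowest, and LCN2 day 0 array 1 was the lowest of all 9. LCN2 from day 0 minus vehicle was -0.24 ± 0.18 (SE, n = 3 per group, limma adjusted p = 0.999), with an interval of -0.64 to 0.15. The day 0 array was below the vehicle array of the same number 3 times, by -0.30, -0.08 and -0.35. With the title number as a block the SE was 0.097 and the unadjusted p 0.0367, and the adjusted p stayed at 0.961.

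Pparg encodes PPARγ, a lipid-activated receptor that IL-4 induces in macrophages. Its log2 level was 9.69, 10.17 and 10.35 with vehicle, 9.63, 10.13 and 10.46 with LCN2 on day 7, and 9.65, 10.23 and 10.29 with LCN2 from day 0. The 3 groups held nearly the same values, and array 1 was the lowest in each. The group means were 10.07 ± 0.34 (SD, n = 3), 10.07 ± 0.41 and 10.06 ± 0.35, and the differences from vehicle were 0.00 ± 0.26 (SE) and -0.01 ± 0.26. With the title number as a block the SE fell to 0.0916 and the 95% intervals ran from -0.21 to 0.21 for day 7 and from -0.22 to 0.20 for day 0, against -0.59 to 0.59 and -0.60 to 0.58 without the block. Title number accounted for 97.5% of the sum of squares of Pparg over the 9 arrays and treatment for 0.0389%.

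RefSeq lists 3 transcript starts for Pparg, and its 1 probe set does not tell them apart. The letters AGGTCA stand before the start in 2 of these 3 windows and in 3 other windows of the 10 windows found for 8 of the 10 genes (Acaa2 and Ppargc1b are named only). They are shown to give the context of this motif at the receptor gene and at enzyme genes, each as 40 bases on the gene's strand in GRCm38.p6, with AGGTCA, or TGACCT where it lies on the opposite strand, in capitals.
Pparg first start, chr6:115361099-115361138, plus strand: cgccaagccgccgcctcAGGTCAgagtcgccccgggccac
Pparg second start, chr6:115362309-115362348, plus strand: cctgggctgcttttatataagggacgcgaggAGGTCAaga
Cpt1a, chr19:3323190-3323229, plus strand: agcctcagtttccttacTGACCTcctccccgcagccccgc
Acadvl, chr11:70015493-70015532, minus strand: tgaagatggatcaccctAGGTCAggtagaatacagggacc
Acadm, chr3:153944854-153944893, minus strand: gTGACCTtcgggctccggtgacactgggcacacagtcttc
Searched on both strands, AGGTCA was in 5 of these 10 windows and in 16.3% of 32851 RefSeq windows of the same length, and GGGCGG was in 7 of 10 and in 35.7%. By gene these were 4 and 6 of the 8 genes with a window. The windows are not independent: Pparg has 3 of them, and the GGGCGG of the Hadha window lies in the bases shared with Hadhb. The direct repeat of AGGTCA with 1 base between the copies, the pattern that PPAR and retinoid X receptor dimers bind, was in 0 of 10 windows and 0.0396% of all. TCAAGGTCA, the pattern of oestrogen-related receptors, which contains AGGTCA, was in 0 of 10 and 0.423%, and the palindromic motif of nuclear respiratory factor NRF1 was in 0 of 10 and 0.971%. These matches describe the letters of the windows only.

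Ppargc1b encodes a coactivator that binds nuclear receptors and supports mitochondrial gene expression. Its log2 level was 8.46, 8.37 and 8.23 with vehicle, 8.50, 8.33 and 8.26 with LCN2 on day 7, and 8.26, 8.23 and 8.16 with LCN2 from day 0. The day 0 group held the lowest array, and its array 1 lay between vehicle arrays 2 and 3. LCN2 from day 0 minus vehicle was -0.14 ± 0.11 (SE, n = 3 per group, limma adjusted p = 0.999), with -0.20, -0.15 and -0.07 within numbers 1, 2 and 3 and an interval of -0.39 to 0.12. LCN2 on day 7 minus vehicle was 0.01 ± 0.11.

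**Figure D2:**
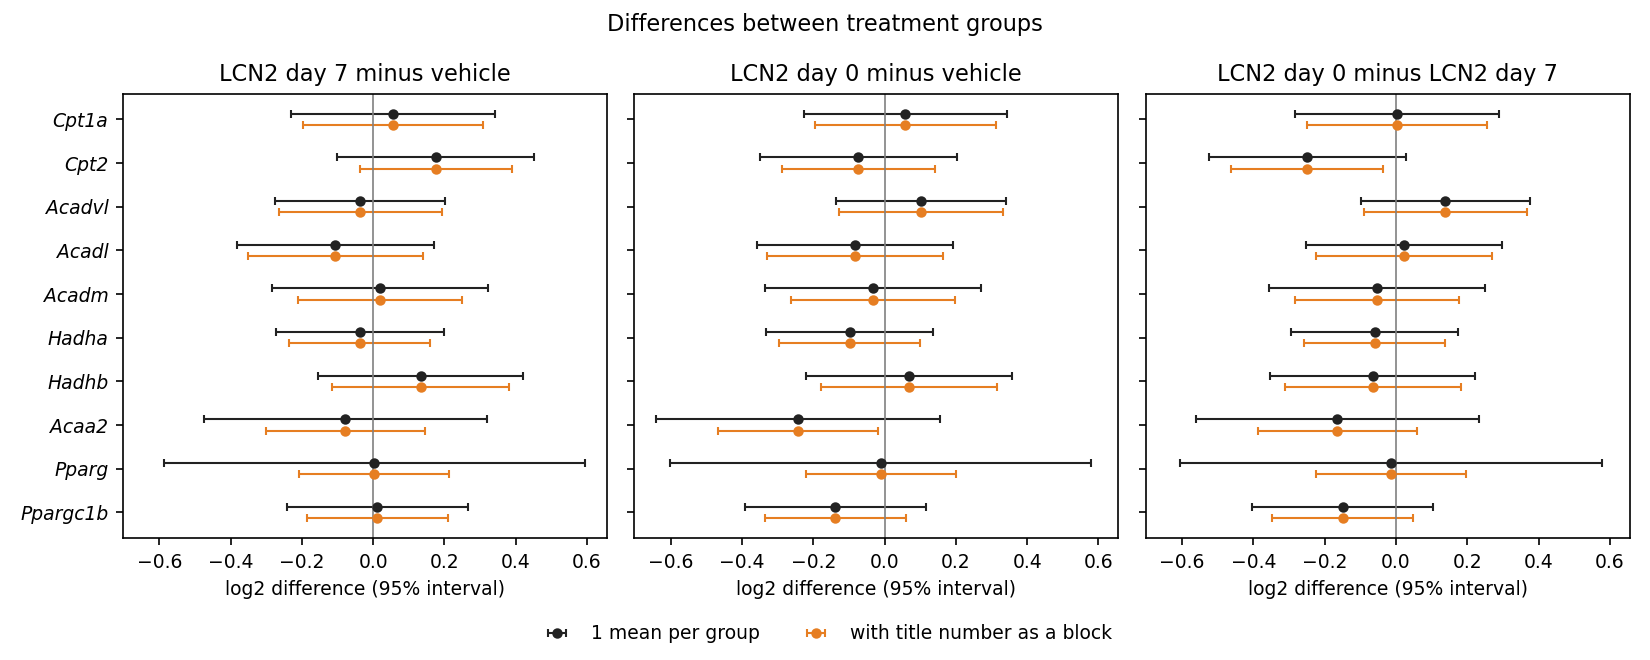
Log2 difference (horizontal axis) of the 10 genes in the 3 group comparisons, with 95% intervals from limma, black with 1 mean per group and orange with the title number as a block. Every black interval crosses 0, and the orange intervals that do not, before adjustment, are those of Acaa2 for day 0 against vehicle and of Cpt2 for day 0 against day 7.

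Each interval holds for 1 gene singly, before adjustment, and not for the 10 genes jointly. In the simulated data the adjusted test without the block recovered 51.6% of 2-fold changes between day 0 and vehicle. Those changes were placed in genes drawn at random from all 10042, so this share is not specific to the 10 genes. For the 8 enzymes the intervals without the block stayed within -0.48 to 0.45 for LCN2 on day 7 against vehicle and within -0.64 to 0.36 for LCN2 from day 0. Those of Pparg were -0.59 to 0.59 and -0.60 to 0.58 in the same order. A 2-fold change in either direction lay outside each of these intervals, taken singly. The median absolute difference of the 10 genes was 0.05 and 0.08 in these comparisons, against 0.07 and 0.08 for all genes. A p that misses the threshold does not show that the levels were equal.

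The other genes of the pathway came from 6 lists with 91 genes, of which 80 had a probe set and 65 were tested. In the comparisons between groups limma called 0 of the 65, and their medians were 0.02 for LCN2 on day 7 and 0.00 for LCN2 from day 0 against vehicle. Slc25a20, the carrier that exchanges acylcarnitines for carnitine across the inner membrane and so works between Cpt1a and Cpt2, had the smallest p of its list in both comparisons with vehicle. Its log2 level was 7.96, 8.37 and 8.28 with vehicle, 7.81, 7.99 and 8.01 with LCN2 on day 7, and 7.75, 8.05 and 7.92 with LCN2 from day 0. Each LCN2 array lay below the vehicle array of its number, and the groups overlapped through vehicle array 1. Slc25a20 differed from vehicle by -0.27 ± 0.14 and -0.29 ± 0.14 (SE, n = 3 per group, limma unadjusted p = 0.0893 and 0.0655, adjusted p of 0.9999 and 0.999), and with the title number as a block the unadjusted p was 0.0166 and 0.0105 and the adjusted p 0.999 and 0.961. The comparisons share the vehicle arrays.

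Among the genes named by list, those with the smallest p did not pass either. For LCN2 on day 7 against vehicle they included Acadsb, a branched-chain acyl-CoA dehydrogenase (0.15), Pex11a, a factor of peroxisome division (-0.36), and Rxra, the retinoid X receptor partner of PPARs (0.18). Also among them were Pprc1, a coactivator related to Ppargc1b (0.16), Lpl, lipoprotein lipase (-0.06), and Acaca, an acetyl-CoA carboxylase, which makes malonyl-CoA (0.16). For LCN2 from day 0 against vehicle they included Slc27a4, a fatty acid transport protein (-0.19), Ep300, a histone acetyltransferase (0.23), Lpl (-0.14), Acot2, a mitochondrial thioesterase (0.16), and Acacb, the mitochondrial acetyl-CoA carboxylase (0.15). Between the LCN2 groups Crebbp, a histone acetyltransferase, was at 0.25 and Pprc1 at -0.28, with unadjusted p of 0.0463 and 0.0488 and an adjusted p of 0.9999 each in limma. Ppara, Ppargc1a and Cpt1b, which encode the relatives of Pparg, Ppargc1b and Cpt1a that lead in liver or muscle, were below the limit for testing, with mean levels of 4.75, 3.47 and 5.54.

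Between title numbers, Pparg and Acaa2 were lower on the arrays numbered 1, and the other 8 genes did not pass. Pparg was 9.63 to 9.69 on the 3 arrays numbered 1 and 10.13 to 10.46 on the 6 others, with no overlap, a difference of -0.61 ± 0.08 (SE, limma with group in the model, adjusted p = 0.00109), or 1.53-fold lower. Acaa2 was 8.76 to 9.07 against 9.15 to 9.50, also with no overlap, a difference of -0.36 ± 0.08 (adjusted p = 0.0126), or 1.29-fold lower. The Acaa2 call was lost without vehicle array 1 (adjusted p = 0.0612) or LCN2 day 0 array 1 (adjusted p = 0.0728), whereas the Pparg call held in all 16 alternatives, with differences from -0.65 to -0.53.

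The 2 of 10 genes called lower compare with 22.1% of all genes called lower on the arrays numbered 1, and the 2 of 10 whose levels lay wholly below with 23.6% of all genes (0 of 10 lay wholly above, against 11.8%, and 2 of 10 wholly apart in either direction, against 35.4%). In a test of any difference between the 3 numbers 2 of the 10 passed, Pparg and Acaa2 (limma adjusted p of 0.00315 and 0.0339), against 23% of all genes. In either direction 2 of 10 were called, against 33.2% of all genes, and 0 of 10 were called higher, against 11%. The number called lower among the 10 is thus near the background of these arrays. Over the 9 arrays 8 of the 10 genes, all but Pparg and Acaa2, had an SD below the median of all tested genes, 0.20. The median SD of the 10 was 0.13, and title number took a median of 44.7% of their sum of squares, against 48.6% for all genes.

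The values of the other 8 genes by title number were as follows. Cpt2 (-0.19 ± 0.08), Acadm (-0.19 ± 0.09), Hadhb (-0.15 ± 0.09) and Hadha (-0.10 ± 0.07) were below 0 on the arrays numbered 1 minus the others, with adjusted p of 0.11, 0.124, 0.243 and 0.338 in limma. Ppargc1b (0.14 ± 0.07), Acadl (0.11 ± 0.09) and Cpt1a (0.09 ± 0.10) were above 0, with adjusted p of 0.171, 0.416 and 0.479. Ppargc1b passed, as higher on the arrays numbered 1, when the arrays were quantile normalized once more (0.25, adjusted p = 0.0448). Acadvl was at -0.03 ± 0.09, and at 0.06 after that normalization. For array 2 minus array 3, 0 of the 10 genes and 0% of all genes passed in limma (310 genes, or 3.09%, had an unadjusted p under 0.05, and 0 of the 10). The widest such difference was that of Pparg, -0.19 ± 0.09 (adjusted p = 0.9999).

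**Figure D3:**
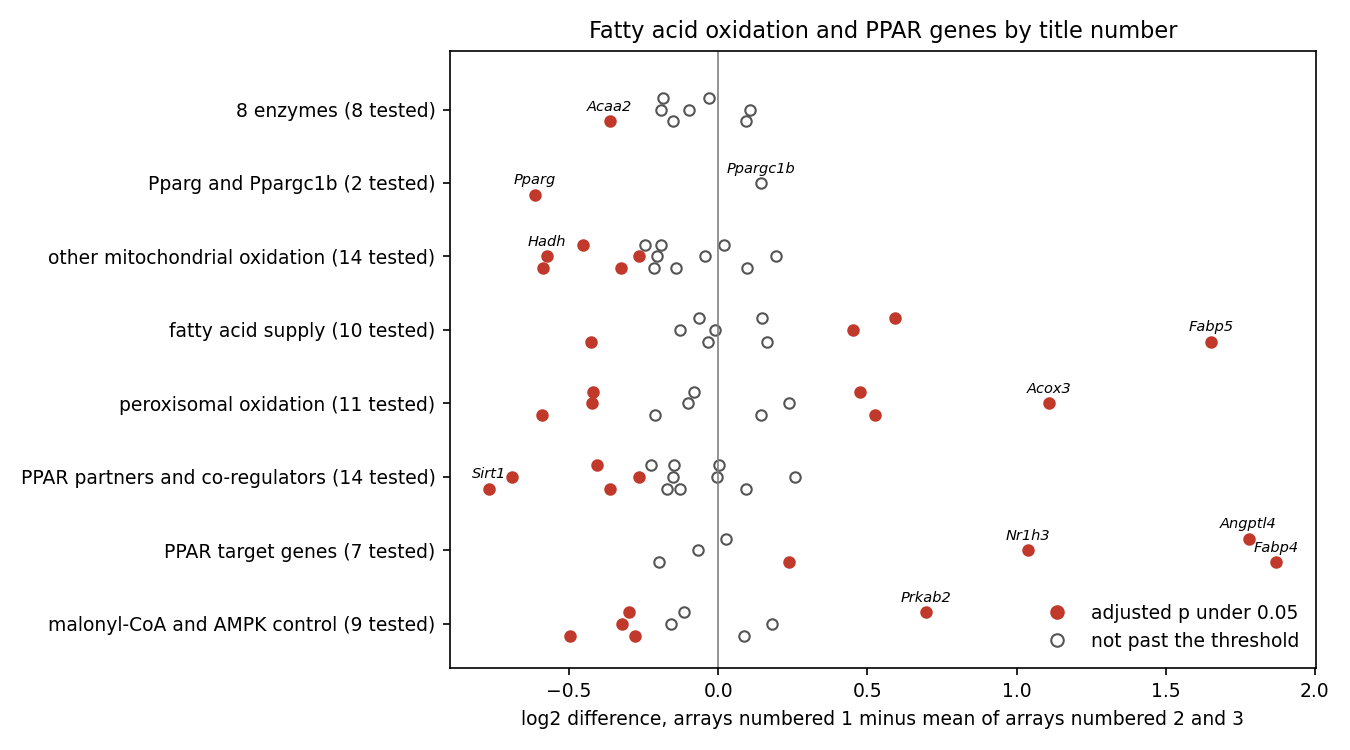
Log2 difference of arrays numbered 1 minus the mean of arrays numbered 2 and 3 (horizontal axis) for the 10 genes and the tested genes of 6 pathway lists, with filled circles for an adjusted p under 0.05. Among the 8 enzymes the filled circle is Acaa2 at -0.36, while Fabp4 at 1.87 and Angptl4 at 1.78 lie farthest to the right.

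Of 14 other genes of mitochondrial oxidation 5 were lower and 0 higher on the arrays numbered 1, against 22.1% and 11% of all genes. The list median was -0.21 against -0.06 for all genes. Hadh, the short-chain hydroxyacyl-CoA dehydrogenase, was at 8.66 to 8.81 on the arrays numbered 1 and 9.25 to 9.42 on the others, a difference of -0.57 ± 0.08 (SE, limma adjusted p = 0.00166). Acat1, the acetoacetyl-CoA thiolase, differed by -0.59 ± 0.09 (adjusted p = 0.00266) and Acad9, a dehydrogenase that also takes part in complex I assembly, by -0.45 ± 0.10 (adjusted p = 0.0107). The other called genes were Etfdh, the electron transfer flavoprotein dehydrogenase (-0.32), and Slc25a20 (-0.26). Among those that did not pass were Echs1, the short-chain enoyl-CoA hydratase, at 0.02 and Acads, the short-chain dehydrogenase, at -0.04. The count of 5 was 3 after a further quantile normalization and 2 or 3 without any of the arrays numbered 1. Of all genes 1731 were called lower after that normalization, against 2224 before it. Without vehicle, LCN2 day 7 or LCN2 day 0 array 1 this count over all genes was 1173, 1722 or 1323. The calls of Etfdh and Slc25a20 were lost in each of these cases (adjusted p of 0.0658 to 0.175 and of 0.0584 to 0.1795), and that of Acad9 without LCN2 day 0 array 1 (0.0615).

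Pathway lists of fatty acid supply and of the peroxisome held genes called in each direction. Of 10 supply genes 3 were higher and 1 lower on the arrays numbered 1, against 11% and 22.1% of all genes. Fabp5, a fatty acid binding protein, was at 10.20 to 10.44 against 8.31 to 8.98 (difference 1.65 ± 0.11, limma adjusted p = 8e-05), Pnpla2, the adipose triglyceride lipase, was at 0.59 ± 0.13 and Fabp3, another fatty acid binding protein, at 0.45 ± 0.12, while Slc27a1, a fatty acid transporter, was at -0.42 ± 0.09. Without LCN2 day 0 array 1 the calls of Pnpla2 (adjusted p = 0.0509) and Slc27a1 (0.0510) were lost, and that of Fabp3 was lost without vehicle array 1 (0.127) or LCN2 day 7 array 1 (0.113).

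Of 11 peroxisomal genes 3 were higher on the arrays numbered 1 (11% of all genes), Acox3, an acyl-CoA oxidase (1.11 ± 0.14), Pex11a (0.53 ± 0.15) and Abcd2, a fatty acid transporter of the peroxisome (0.48 ± 0.09), and 3 were lower (22.1% of all genes), Scp2, a sterol carrier with thiolase activity (-0.59 ± 0.09), Crot, a carnitine octanoyltransferase (-0.42 ± 0.12), and Decr2, a dienoyl-CoA reductase (-0.42 ± 0.08). The Pex11a call was lost without vehicle, LCN2 day 7 or LCN2 day 0 array 1 (limma adjusted p of 0.158, 0.0616 and 0.0656), and the Crot call without vehicle or LCN2 day 0 array 1 (0.125 and 0.135). The peroxisomal median was -0.08, and 0.11 after a further quantile normalization. Of 9 genes that set malonyl-CoA and AMP-activated kinase, 1 was higher, the kinase subunit Prkab2 (0.70 ± 0.13), and 4 were lower, among them the kinase genes Prkag1 (-0.50 ± 0.09), Stk11 (-0.32 ± 0.09) and Prkaa1 (-0.30 ± 0.09). The shares of all genes were 11% higher and 22.1% lower. The count of 4 was 1 after a further quantile normalization and 1 without any of the arrays numbered 1. The calls of Stk11, Prkaa1 and Acaca were lost in each of these cases (adjusted p of 0.0537 to 0.1496, 0.0988 to 0.162 and 0.0913 to 0.180). The count of all genes called lower also fell, from 2224 to 1731 after that normalization and to 1173, 1722 and 1323 without these arrays.

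Genes that PPARs are known to activate included members called higher on the arrays where Pparg was lower. Of 7 tested target genes 4 were higher on the arrays numbered 1, against 11% of all genes, and 0 were lower. Fabp4, the fatty acid binding protein of adipocytes and macrophages, was at 10.31, 10.18 and 10.11 on the arrays numbered 1 of the vehicle, day 7 and day 0 groups, and at 7.83 to 8.82 on the 6 others, a difference of 1.87 ± 0.12 (SE, limma adjusted p = 5.63e-05). Angptl4, an inhibitor of lipoprotein lipase, was at 8.59, 8.47 and 8.69 against 6.35 to 7.12 (1.78 ± 0.11, adjusted p = 5.46e-05). Nr1h3, which encodes the oxysterol receptor LXRα, was at 9.11, 8.88 and 8.88 against 7.60 to 8.14 (1.04 ± 0.13, adjusted p = 0.000843). These 3 genes did not overlap between the arrays numbered 1 and the others, and they passed under each scaling tried. Between arrays 2 and 3 Fabp4 was at -0.52 and Angptl4 at 0.43 (unadjusted p of 0.00486 and 0.00916, adjusted p = 0.9999 each in limma).

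Cd36, a scavenger receptor for fatty acids, was at 12.52 to 12.62 against 12.28 to 12.41 (0.24), and its call was lost under both other scalings (adjusted p = 0.0580 and 0.107) and without vehicle, LCN2 day 7 or LCN2 day 0 array 1 (0.117, 0.130 and 0.159), so that 3 of the 7 targets were called in each of these 5 cases. In these 5 cases, in the same order, 1481, 888, 604, 889 and 600 of all genes were called higher, against 1109 otherwise. Plin2, which coats lipid droplets, was at 0.03, Lpl at -0.07 and Acot2 at -0.20 (limma adjusted p = 0.126 for Acot2), and none of these passed. Of the 13 target genes listed, 11 had a probe set and the 4 dim ones were not tested. Of 14 PPAR partners and co-regulators 5 were lower and 0 higher, against 22.1% and 11% of all genes: Sirt1, a deacetylase, by -0.77 ± 0.11, the coactivator genes Ncoa3 by -0.69 ± 0.08 and Ncoa1 by -0.40 ± 0.08 (limma adjusted p of 0.00143, 0.000843 and 0.0073), Med1, a Mediator subunit, and Ncoa2. The Ncoa2 call was lost after a further quantile normalization (adjusted p = 0.171) and without LCN2 day 7 or LCN2 day 0 array 1 (0.1504 and 0.188), and the Med1 call without vehicle array 1 (0.0888).

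Other marker lists moved with the title number as well, and their part in these differences was not tested. On the arrays numbered 1, where 22.1% of all genes were lower and 11% higher, 13 of 14 cell cycle genes were lower (mean list level 7.79 to 8.42 against 8.83 to 9.21), 6 of 7 neutrophil granule genes were lower (5.89 to 6.68 against 7.30 to 7.77) and 3 of 5 monocyte markers were lower (6.63 to 7.07 against 7.17 to 7.57), while 4 of 6 osteoclast markers were higher (8.55 to 9.13 against 7.55 to 8.27). In the opposite direction, the monocyte marker Fn1 was higher (1.82) and the osteoclast marker Ocstamp lower (-1.05). Of 6 macrophage markers 2 were higher and 1 lower, with differences from -0.98 (Fcgr1) to 0.77 (Mertk), and of 8 IL-4 response genes 2 were higher and 2 lower, from -0.64 (Arg1) to 1.51 (Chil3). Of 6 dendritic cell markers 2 were tested and both were higher, by 0.33 and 0.70, but the list levels overlapped (5.93 to 6.06 against 5.84 to 6.12). Among the dim ones, means were 5.21 against 5.82 for Cd209a, 5.34 against 5.51 for Zbtb46 and 3.13 against 3.36 for Xcr1. Flt3 was at 4.22 against 4.13. Of 6 fibroblast markers 2 were tested and 1 was higher (list level 4.96 to 5.17 against 4.85 to 5.05). The adipocyte list was at 4.18 to 4.33 against 4.06 to 4.22, with 0 of its genes bright enough to test. In RNA from a whole culture, fewer cells of a type and less RNA per cell cannot be told apart.

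**Figure D4:**
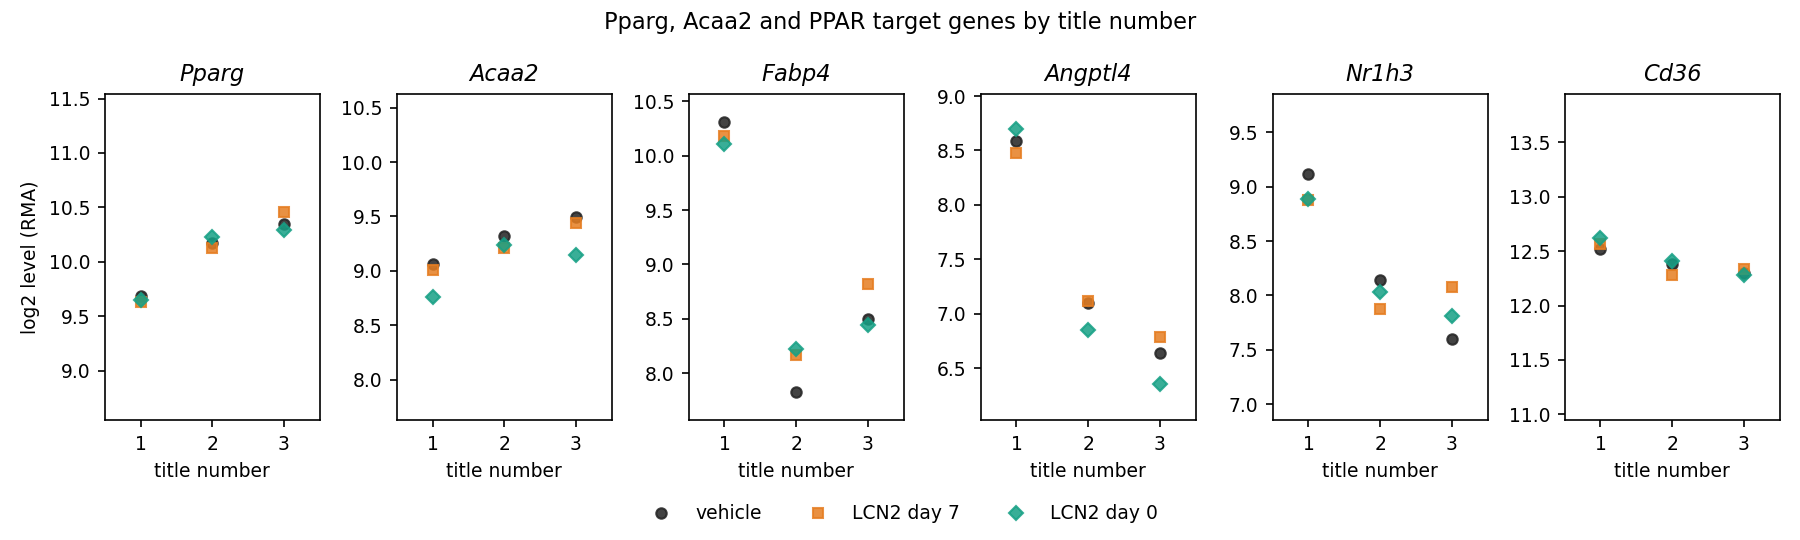
Log2 level (RMA, vertical axis, each panel spanning the same range) against title number for Pparg, Acaa2 and 4 PPAR target genes, with circles for vehicle, squares for LCN2 on day 7 and diamonds for LCN2 from day 0. Pparg and Acaa2 are lowest on the arrays numbered 1, where Fabp4, Angptl4, Nr1h3 and Cd36 are highest. The 4 targets shown are those called higher there, and the tested targets Plin2, Lpl and Acot2, which did not pass, are not shown.

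Correlations between the 10 genes had both signs, and pairs of other genes were not computed for comparison. After subtraction of the mean of each title number, 26 of the 45 pairs correlated above 0 over the 9 arrays, with a median r of 0.16 and a range from -0.83 (Acadl and Hadhb) to 0.78 (Hadha and Ppargc1b). Among all other tested genes the closest in this measure were Exosc9 (r = 0.98) and Kansl1 (0.98) to Pparg, Atic (0.97) and Tab1 (0.96) to Ppargc1b, Mfsd4b5 (0.99) and Rgs14 (0.99) to Cpt1a, and Rnf114 (0.98) and Rnf166 (0.98) to the mean of the 8 enzymes. These values are descriptions of 9 arrays that share their number means, picked as the highest of many genes.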

How the data were processed

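The deposited table holds log2 levels for 22203 probe sets on 9 arrays, which the authors made with oligo and RMA, per the submitters' processing notes (no versions given). RMA corrects background, equalises array distributions and summarises probes. The genome build is not given in the sources used here. No value was altered before the fits. A single gene symbol was annotated for 19572 probe sets, several for 0 and none for 2631. All 19572 matched RefSeq (GRCm38.p6) by Entrez identifier, with 0 symbols changed. The highest-mean probe set was kept per gene, and genes below the median probe-set mean were left out. Precision rests on the number of arrays, as there are no read counts.

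Limma 3.58.1 (R 4.3.3) was fitted to all genes on all 9 arrays, with 1 mean per group, or with group and title number for contrasts of numbers, without variance trend. P-values were adjusted by Benjamini-Hochberg over 10042 genes at 0.05. The arrays numbered 1 were set against the others because earlier results of these data were known. All 9 same-number pairs of arrays from different groups correlated above 0.1 in their deviations from group means (0.156 to 0.82), which by the criterion used makes the numbers a pairing, although numbers 2 and 3 could not be told apart in this way (-0.387 to 0.292). The fits were tested on simulated data: for LCN2 from day 0 against vehicle, 86.2% of 3-fold and 51.6% of 2-fold changes among 10042 genes were recovered, and 11.6% of 1.5-fold ones. With the number as a block the shares were 96%, 81.4% and 45.8%.

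Members, lists and tests were chosen with earlier results of these data known. Named genes are all 10 members and, for each pathway list and comparison, taken from the 3 genes per direction with the smallest p past the threshold, or the 2 with the smallest p where none passed. Genes closest to Pparg, Ppargc1b, Cpt1a and the enzyme mean are the 2 with the highest number-centred r. Ppara, Ppargc1a, Cpt1b, Slc25a20 in its levels, Echs1, Acads, Cd36, Plin2, Etfdh, Acaca and Acot2 by title number, Med1, Ncoa2 and single marker genes were named after their values were seen. Alternatives changed the filter, scaling, variance model, probe set rule, arrays and block. Those that used only the arrays numbered 2 and 3 were added after the data were seen.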

Additional observations from a re-analysis of the deposited data

How the results depend on the processing

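No comparison between treatment groups called any of the 10 genes or any of all genes under any alternative, including the title number as a replicate block, the filters, scalings, variance model and probe set rule, and each array left out. The lowest adjusted p of the 10 genes over these was 0.784, for day 0 against day 7 (0.961 for day 0 and 0.999 for day 7 against vehicle). With the replicate block the counts were 0 as well, and it changed no call.

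Differences near 0 changed sign, and the cause was not tested. With only arrays 2 and 3, an alternative added after the data were seen, Ppargc1b was at -0.006346 for day 7 against vehicle, Pparg at 0.002346 for day 0 against vehicle and Cpt1a at -0.106 for day 0 against day 7. With arrays centred on their medians Cpt1a was at -0.03533 and Acadl at -0.0153 for day 0 against day 7. With a further quantile normalization Acadvl was at 0.0628 for array 1 against the others.

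Leaving out 1 array at a time gave these ranges for the genes whose sign changed. The range for day 7 against vehicle was Acaa2 -0.191 to 0.028, Acadm -0.0859 to 0.138, Acadvl -0.083 to 0.000517, Cpt1a -0.0359 to 0.125, Pparg -0.19 to 0.223, Ppargc1b -0.058 to 0.066. The range for day 0 against vehicle was Acadm -0.0985 to 0.0312, Cpt1a -0.00867 to 0.128, Hadhb -0.0202 to 0.157, Pparg -0.201 to 0.193. The range for day 0 against day 7 was Acadl -0.05995 to 0.08996, Acadm -0.172 to 0.0527, Cpt1a -0.0644 to 0.0944, Hadhb -0.153 to 0.0234, Pparg -0.234 to 0.19. The range for array 1 against the others was Acadvl -0.0922 to 0.0228. The range for array 2 against array 3 was Acadvl -0.0629 to 0.0793, Cpt2 -0.0235 to 0.0925, Hadhb -0.152 to 0.0145.

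For array 1 against the others the count among the 10 was 1 to 2 and over all genes 1777 to 3612 with an array left out, with 1777 without vehicle array 1 and 1923 without LCN2 day 0 array 1. It was 3 among the 10 after a further quantile normalization, which added Ppargc1b, against 1481 higher and 1731 lower of 10041 genes. In the test of any difference between the 3 numbers 2 of the 10 passed (23% of all genes), 1 without the filter on dim probe sets, 1 after quantile normalization and 1 to 2 with an array left out, against 785 to 2611 of all genes (2307 with all arrays, 785, 1495 and 1427 without vehicle arrays 1, 2 and 3, and 963 without LCN2 day 0 array 1). The median of all genes was -0.06 for array 1 against the others, -0.01 after quantile normalization and -0.10 after centring. With 3 arrays per group, 11.6% of simulated 1.5-fold changes between day 0 and vehicle were recovered among 10042 genes, and 45.8% with the block. Most changes of this size could therefore be missed, as could smaller ones and part of the larger ones, whose shares are given above.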
